A study of Mus musculus with 3 samples.

Results

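The genes described here are the cytoplasmic ribosomal protein genes, taken by name: names beginning Rpl or Rps with a digit, Rplp0 to Rplp2, and Rpsa, without pseudogene names (holding -ps) and without the Rps6k kinases. The rule found 86 of the 17168 genes in the table, of which 33 encode proteins of the small subunit, 52 encode proteins of the large subunit or carry their names, and 1, Rps19bp1, is no ribosomal protein but a nucleolar protein named for its binding to Rps19. The data are single-cell RNA counts of CD45+ leukocytes from sciatic nerves of 15-week-old NOD.AIRE GW/+ mice, in 3 libraries of 6033, 2333 and 3274 cells. The mice are on the autoimmunity-prone NOD background and carry a changed copy of Aire, the gene that drives display of tissue antigens in the thymus. Libraries 1 and 2 were sequenced from the 3′ end of the transcripts and library 3 from the 5′ end. All 3 share the genotype, age and CD45 selection, with no wild-type group analysed here. Whether a library is 1 animal or several is not stated in the labels, so each p-value reflects how far the 3 libraries vary, which may be technical.

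Ribosomal proteins are the structural parts of the ribosome, made in near-equal amounts and built onto ribosomal RNA in the nucleolus. Their messengers carry a run of pyrimidines at the 5′ end, the terminal oligopyrimidine (TOP) motif, through which mTORC1 and Larp1 control their translation. In lymphocytes, ribosome production is known to rise with activation and growth. Several of the proteins have paralogs, such as Rps27l for Rps27 and Rpl22l1 for Rpl22. Some paralogs, such as Rpl3l, are expressed in restricted tissues.

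Start regions of 6 genes are shown because they carry the contrasts described further on: Rps27 and Rps27rt share much of their transcript sequence, Rps27l departs most from the family among the members with at least 10 UMIs in every tested class and library, and Rpl28, Rps15a and Rpl12 depart in opposite directions between classes. Each holds 30 bases before and 20 bases after the start, 5′ to 3′ on the gene's own strand, from RefSeq on GRCm38.p6, and capitals mark the letters CTTTCC.
Rps27 (chr3:90213629-90213678, minus strand): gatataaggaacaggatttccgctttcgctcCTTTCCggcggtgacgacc
Rps27rt (chr9:114982720-114982769, minus strand): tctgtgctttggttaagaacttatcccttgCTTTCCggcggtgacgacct
Rps27l (chr9:66946056-66946105, plus strand): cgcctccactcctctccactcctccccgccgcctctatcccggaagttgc
Rpl28 (chr7:4792935-4792984, plus strand): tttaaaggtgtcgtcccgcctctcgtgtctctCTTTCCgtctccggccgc
Rps15a (chr7:118116128-118116177, minus strand): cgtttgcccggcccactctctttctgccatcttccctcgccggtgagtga
Rpl12 (chr2:32961682-32961731, plus strand): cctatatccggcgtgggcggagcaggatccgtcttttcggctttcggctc
The windows of Rps27 and Rps27rt share a run of 19 letters that begins at the capitals.

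RefSeq start windows were matched for 66 of the 86 genes, giving 78 windows of 250 bases before to 50 bases after the start. The letters CTTTCC stood within 20 bases of the start, on the gene's own strand, in 12 of the 78 windows (15.4%), against 1.95% of 32851 windows of all genes. Over the whole window and either strand they stood in 51.3%, against 26.6% of all windows. CCGGAAG, the core letters bound by ETS factors, stood in 34.6% of the whole windows, against 8.86% of all windows, and near the start in 8.97%, against 1.44%. The letters TATAAA stood in 8.97% of the whole windows, against 13.6%, and near the start in 1.28%, against 0.664%. CACGTG, the E-box bound by Myc, stood in 10.3% of the whole windows, against 7.15%, and near the start in 2.56%, against 1.25%. These are matches of letters, not measured binding.

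Ribosomal protein transcripts made up 26.6%, 26.0% and 21.6% of all unique molecular identifiers (UMIs, 1 per captured transcript) in libraries 1, 2 and 3, which held 22587246, 11398628 and 13791264 UMIs. Levels below are counts per 1000000 UMIs (CPM). UMIs were counted from 1 end of a transcript and so were not divided by length. The most abundant members were Rps24, at 5506, 7447 and 5971 CPM in libraries 1, 2 and 3, and Rps15a, Rps29 and Rpl41, which averaged 5769, 5699 and 5651 CPM. Rpl13, Rpl39, Rpl23, Rps16 and Rpsa, the small-subunit protein also known as the laminin receptor, were also among the 10 most abundant. At the other end, Rpl3l had 96 UMIs in all cells, Rpl39l 39 and Rpl10l 9.

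The share of UMIs from the family was highest in B cells in libraries 1 and 2 and in Cd8 cells, just above B cells, in library 3, and lowest in plasma cells in all 3. Classes are the 10 names the authors gave to their 14 clusters, which rest on the same counts, so the p-values given further on do not show that the classes are distinct. B cells held 31.7%, 33.0% and 26.2% in libraries 1, 2 and 3, and Cd8 T cells 28.2%, 29.0% and 26.4%. Treg held 21.7%, 20.5% and 17.8%, and macrophages (Mac) 19.5%, 18.5% and 16.2%. Plasma cells, of which there were only 7, 12 and 35, held 11.6%, 12.5% and 5.59%. In each library, every value of B, Cd8 and gdT/NK/NKT cells lay above those of Treg, Mac and Plasma.

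Markers of the named cell type are given here for Mac, and T-cell markers for Mixed. The other class names stand as the authors gave them. Summed macrophage markers (C1qa, C1qb, Adgre1, Csf1r, Cd68) stood at 1676 to 12037 CPM in Mac. Schwann cell and fibroblast markers stayed at or below 4.3 CPM in every class and library, while endothelial markers (Pecam1, Cdh5) ranged up to 141 CPM, in pDC. The class named Mixed expressed T-cell markers at 1989 to 2901 CPM, and is given under the authors' name.

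**Figure D1:**
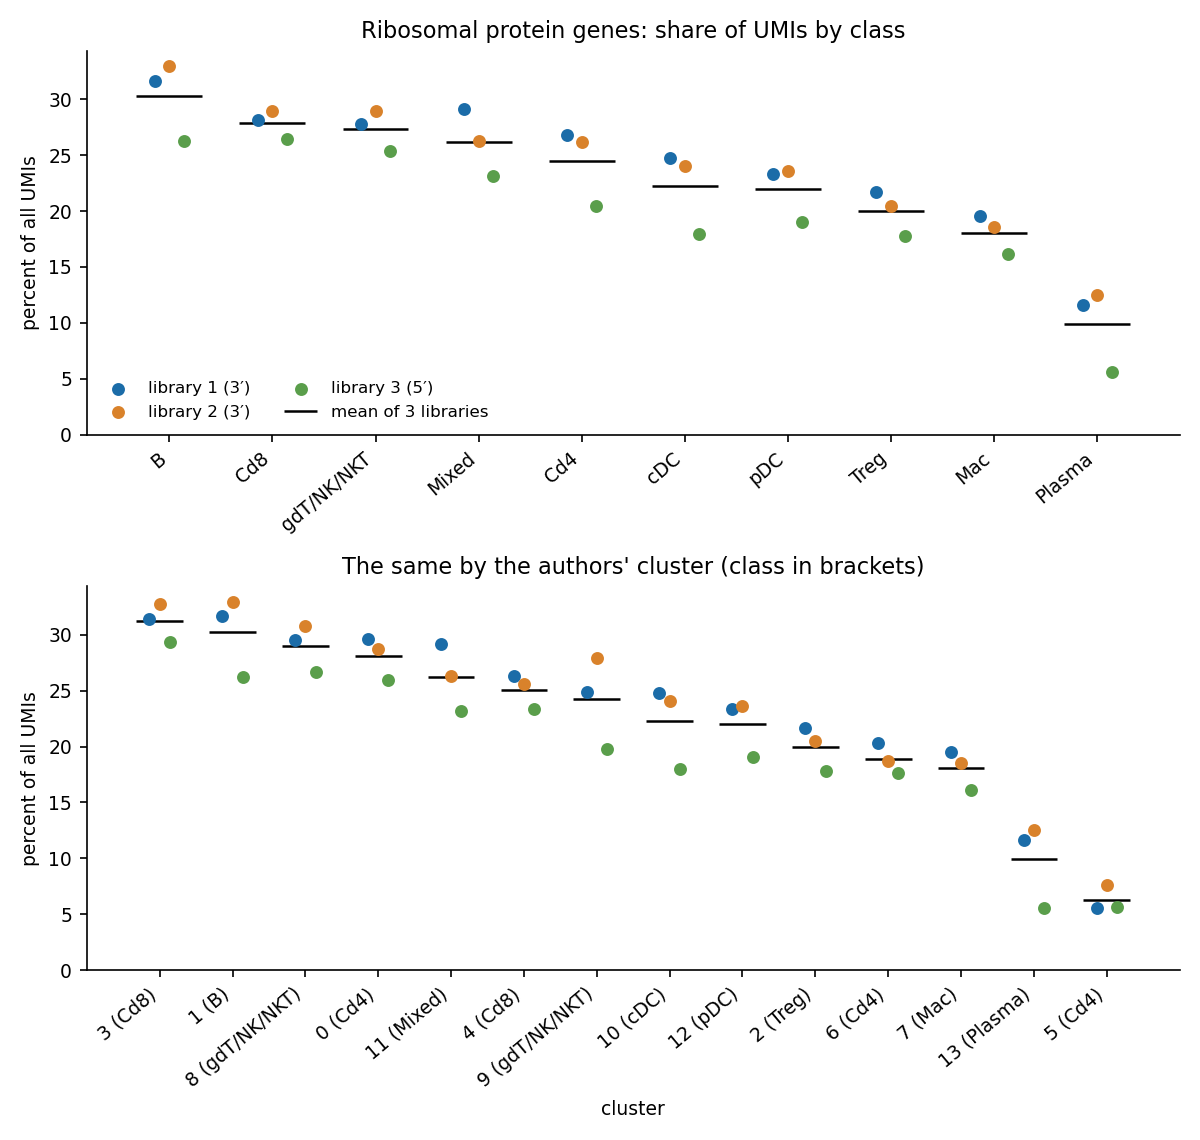
Percent of all UMIs that came from the 86 ribosomal protein genes, by class (above) and by the authors' cluster (below), with 1 point per library and a bar at the mean of the 3 libraries. B and Cd8 cells lie at the high end, Treg, Mac and Plasma at the low end, and cluster 5 of the Cd4 class lies at 5.55% to 7.65%.

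B cells carried more of most ribosomal protein transcripts than the average of the other tested classes, though not than each of them. Each class was set against the average of the 7 remaining tested classes. In that fit 69 of 84 tested members were higher in B cells and 1 was lower (edgeR quasi-likelihood test with Benjamini-Hochberg adjustment, adjusted p under 0.05), where 37.1% of all 10895 genes were called in B cells, 20.8% higher and 16.4% lower. The median log2 fold change of the members was 0.41, against 0.03 over all genes. Rps20, a small-subunit protein, had 7902, 8534 and 6565 CPM in B cells of libraries 1, 2 and 3, above its 2431 to 5795 CPM in the other 7 classes. Its log2 fold change was 1.02 ± 0.07 (SE, edgeR adjusted p = 1.8e-11). Rps27l was the gene called lower, at 127, 180 and 94.4 CPM in B cells.

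In Treg, 77 of 84 members were lower and 0 higher by the edgeR quasi-likelihood test, where 25.2% of all genes were called, 15.8% higher and 9.42% lower, and the median was −0.53, against 0.01 over all genes. At an unadjusted p under 0.05, 1 member was higher, and DESeq2 called 0 higher and 78 lower. Rps25, of the small subunit, had 1448, 1340 and 447 CPM in Treg, below every other tested class in each library. Its log2 fold change was −0.92 ± 0.08 (edgeR adjusted p = 6.3e-09), and that of Rps20 was −0.90 ± 0.09 (edgeR adjusted p = 1.0e-08).

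The other lymphocytes lay between. In Cd8 cells 48 members were higher and 1 lower (27.9% of all genes called, 17.7% higher and 10.2% lower), led by Rps15a at 0.67 ± 0.07 and Rpl13a at 0.65 ± 0.08 (edgeR adjusted p = 8.9e-08 and 3.8e-07). In gdT/NK/NKT cells 34 were higher and 0 lower (25.4% called, 14.9% higher and 10.5% lower), with 2 lower at an unadjusted p under 0.05 and 1 lower by DESeq2. Cd4 cells had 0 higher and 19 lower by edgeR (30.6% called, 19.8% higher and 10.7% lower), with 1 higher at an unadjusted p under 0.05 and 0 by DESeq2. Without cluster 5, the Cd4 count turned to 4 higher and 2 lower, and the Cd8 count to 20 and 1. These counts rested on all 3 libraries: without library 1, 2 or 3, the members called numbered 17, 9 or 10 in Cd8 cells, 10, 5 or 12 in gdT/NK/NKT cells, and 13, 7 or 5 in Cd4 cells.

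Myeloid classes were split. Macrophages had 12 members higher and 36 lower (47.9% of all genes called, 25.8% higher and 22.1% lower), and cDC had 13 higher and 16 lower (39.8% called, 20.8% higher and 19% lower). Mixed cells had 6 and 6 (13.2% called, 8.48% higher and 4.68% lower). The cDC split depended on the setting. It was 21 higher and 9 lower with DESeq2 size factors, 25 and 10 with DESeq2, 18 and 7 without a filter on low counts, 27 and 9 without cluster 5, and 13 and 3, 14 and 4 or 22 and 7 without library 1, 2 or 3. Without library 1, 2 or 3, the members called numbered 22, 29 or 34 in Mac and 2, 3 or 7 in Mixed. Scaling by total UMIs alone, in place of TMM, moved the median of all genes by −0.33 in Mac, 0.23 in Treg, 0.16 in Cd4, −0.12 in cDC and 0.12 in Mixed. The split then became 1 higher and 70 lower in Mac, 5 and 32 in cDC, 6 and 3 in Cd4, and 24 and 2 in Mixed, so no direction is given for cDC, Cd4 or Mixed as a whole. With DESeq2 size factors Mixed had 7 and 3. Relative to the median of all genes, the members' median was −0.09 in Mac under TMM and −0.10 under total UMIs, −0.54 under both in Treg, and 0.38 and 0.40 in B cells. Without that centring the order of Treg and Mac depended on the scaling: the members' median was −0.53 in Treg and −0.17 in Mac under TMM, and −0.30 in Treg and −0.51 in Mac under total UMIs.

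Genes of the wider translation machinery were counted in the same fit. Over all genes, 20.8% were higher and 16.4% lower in B cells, and 17.7% and 10.2% in Cd8 cells. In gdT/NK/NKT cells 14.9% and 10.5% were, and in Treg 15.8% and 9.42%. Whether the lists below exceed these shares was not tested. Fau, which encodes a ribosomal protein under another name, was higher in B cells (0.69 ± 0.06) and lower in Treg. Of 18 elongation and initiation factors and partners whose messengers carry the TOP motif, 8 were higher and 0 lower in B cells, 9 and 0 in Cd8 cells, 11 and 0 in gdT/NK/NKT cells, and 0 and 11 in Treg. Among them, the elongation factor subunit Eef1g was at 0.57 ± 0.10 in B cells and −0.73 ± 0.11 in Treg. Of 35 tested ribosome biogenesis genes, 16 were higher and 0 lower in B cells, among them the transcription factor Myc at 3.29 ± 0.15. In Treg 0 were higher and 10 lower, with Rrp12 and Myc lowest and the methyltransferase Fbl at −0.73 ± 0.13. Mac had 5 and 9 (25.8% and 22.1% of all genes) and cDC 4 and 7 (20.8% and 19%). Cd8 cells had 7 and 0, and gdT/NK/NKT cells 1 and 0. Cd4 cells had 0 and 3 (19.8% and 10.7%), and Mixed 0 and 0 (8.48% and 4.68%).

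Mitochondrial ribosomal proteins, which build a separate ribosome, were counted beside them. Of 78 tested, 12 were higher and 0 lower in Cd8 cells, 5 and 11 in Treg, 3 and 11 in B cells, 1 and 17 in Cd4 cells, 3 and 3 in gdT/NK/NKT cells, 0 and 4 in Mixed, 25 and 2 in cDC, and 15 and 7 in Mac. Their median log2 fold change was 0.28 in cDC, −0.06 in B cells and −0.07 in Treg, against −0.11, 0.03 and 0.01 over all genes. Whether their order over the classes differs from that of the family was not tested, nor whether their counts exceed the shares of all genes called. Those shares, higher and then lower, were 17.7% and 10.2% in Cd8, 15.8% and 9.42% in Treg, and 20.8% and 16.4% in B cells. They were 19.8% and 10.7% in Cd4, 14.9% and 10.5% in gdT/NK/NKT, and 8.48% and 4.68% in Mixed. In cDC they were 20.8% and 19%, and in Mac 25.8% and 22.1%. Of 18 genes of mTORC1 and its regulators, 2 were higher and 1 lower in B cells, and 4 and 0 in Treg.

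Single members departed from the family, tested by setting each gene against the sum of all members in the same cells. Among 80 members with at least 10 UMIs in every tested class and library, the SD of the log2 share over the 8 classes had a median of 0.13. Rps27l stood highest at 0.82, followed by Rpl12 at 0.41, Rpl10 at 0.37, Rpl13a at 0.34, Rpl22l1 at 0.30 and Rps9 at 0.29. The share of all genes called in that fit stands beside each count, first higher and then lower. Macrophages had 21 members above and 20 below the family (45.6% of all genes called, 29.8% and 15.9%), and cDC had 18 and 21 (37.9% called, 19.8% and 18.1%). Treg had 20 and 18 (57.6% called, 54.7% and 2.93%), and B cells 12 and 18 (45.6% called, 8.53% and 37.1%). Mixed had 11 and 9 (12.5% called, 8.06% and 4.4%), and gdT/NK/NKT 9 and 9 (24.5% called, 9.09% and 15.4%). Cd4 had 8 and 6 (34% called, 27.9% and 6.16%), and Cd8 6 and 6 (27.3% called, 9.4% and 17.9%). Since the scale is the family total, these shares of all genes also carry the class's family level. Without library 1, the departing members numbered 26 in Mac, 23 in Treg, 23 in cDC, 16 in B, 5 in Mixed, 5 in gdT/NK/NKT, 5 in Cd4 and 6 in Cd8 cells. Without library 2 they numbered 24 in Treg, 19 in B, 10 in Mixed, 4 in gdT/NK/NKT, 6 in Cd4 and 6 in Cd8 cells, and without library 3, 10 in gdT/NK/NKT and 6 in Cd4 cells.

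Rps27l, a paralog of Rps27 known as a p53 target, was above the family in cDC, Mac and Treg and below it in B cells, Cd4 cells and Mixed. Rps27l had 546, 1021 and 273 CPM in cDC of libraries 1, 2 and 3, which held only 232, 28 and 34 cDC. In Mac it had 313, 260 and 207 CPM. Treg had 238, 267 and 177 CPM, above Mac in library 2. B cells had 127, 180 and 94.4 CPM, and Cd4 cells 162, 215 and 98.5. Every cDC value exceeded the value of each other tested class in its library. Its departure was 1.75 ± 0.15 in cDC (edgeR adjusted p = 1.0e-09), 0.82 ± 0.16 in Mac (adjusted p = 0.00012), 0.42 ± 0.16 in Treg (adjusted p = 0.028) and −1.18 ± 0.18 in B cells (adjusted p = 1.0e-05). The Treg call and the Cd4 call each ended without library 1 and without library 3, and the call in Mixed ended without library 1.

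Rps27 itself went the other way. It had 8136, 497 and 6695 CPM in B cells, against 3373, 196 and 2415 CPM in cDC, so that B cells were higher in each library although library 2 was low throughout. Its departure was 0.54 ± 0.06 in B cells (edgeR adjusted p = 6.7e-08) and −0.50 ± 0.07 in cDC (adjusted p = 1.2e-06). Rps27rt, at 220, 1414 and 54.0 CPM in B cells, departed by 0.54 ± 0.10 there and −0.57 ± 0.12 in cDC, but 90.8% of the 60-base words of its transcript also occur in Rps27, and 63.1% of those of Rps27 occur in Rps27rt, so the pair cannot be told apart by sequence over those stretches.

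**Figure D2:**
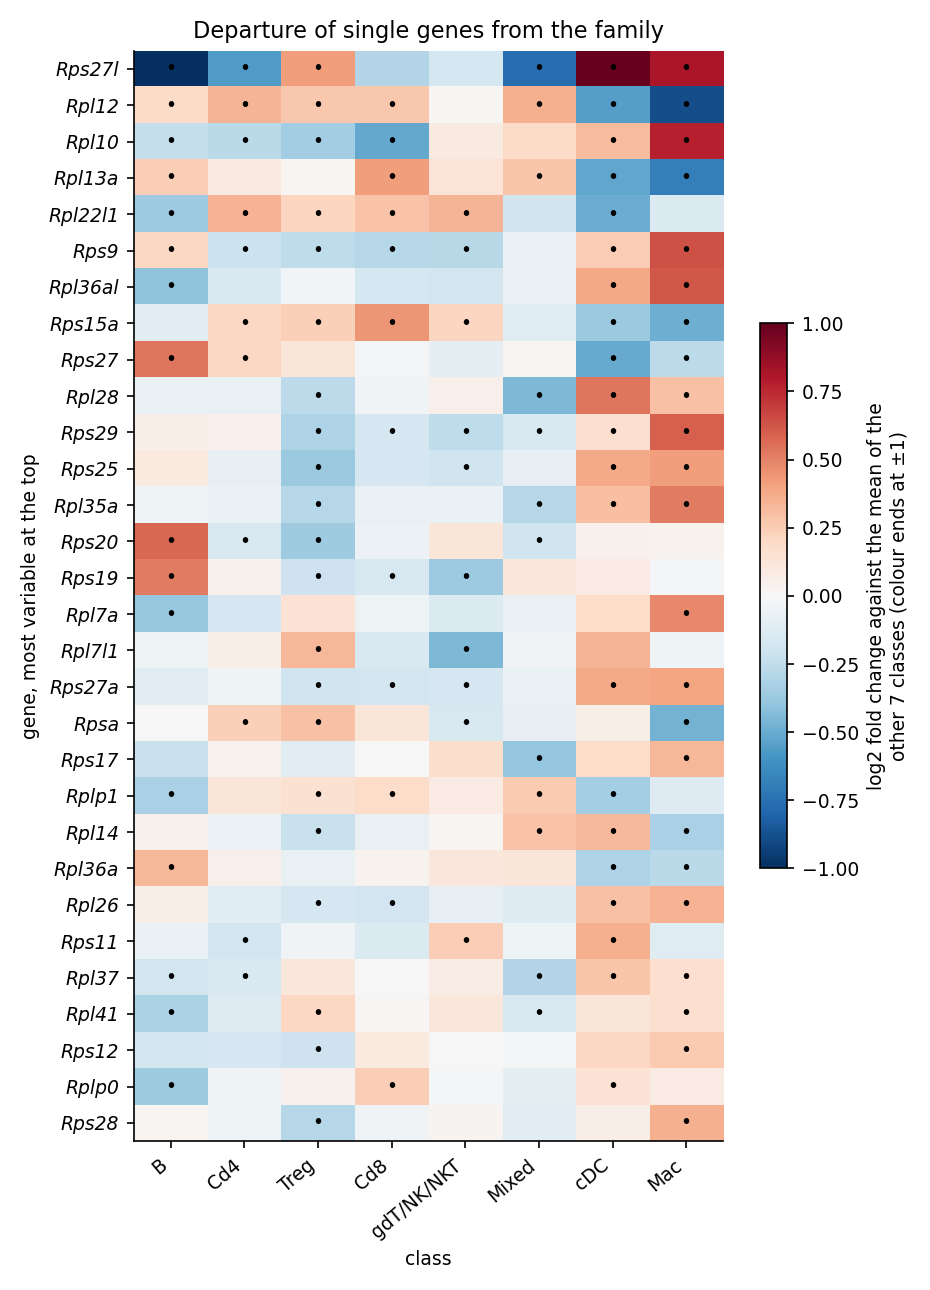
Log2 fold change of the 30 most variable members against the mean of the other 7 classes, on the sum of member UMIs, with red for higher and blue for lower and a dot where the edgeR adjusted p was under 0.05. Rps27l, at the top, is highest in cDC (1.75) and lowest in B cells (−1.18).

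Rpl12, a stalk-base protein of the large subunit, was low in myeloid cells. It had 1860, 1446 and 570.5 CPM in Mac of libraries 1, 2 and 3, against 5874, 5103 and 1701 CPM in B cells and 5173, 4578 and 1494 CPM in Cd4 cells. The Mac value was the lowest of the 8 tested classes in each library. Its departure was −0.89 ± 0.06 in Mac (edgeR adjusted p = 4.1e-12), −0.55 ± 0.06 in cDC and 0.35 ± 0.05 in Mixed.

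**Figure D3:**
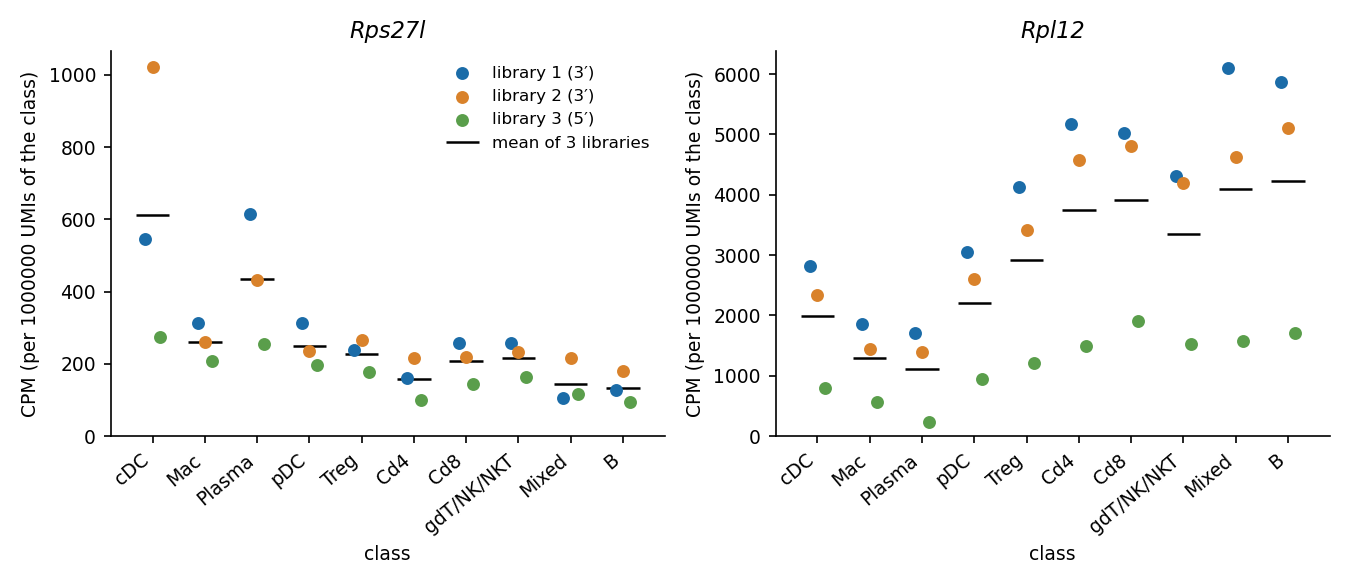
Level of Rps27l (left) and Rpl12 (right) in CPM by class, with 1 point per library and a bar at the mean of 3. Rps27l reaches 1021 CPM in cDC of library 2, which held 28 cDC, and Rpl12 is lowest among the 8 tested classes in Mac.

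Rpl13a, known in human monocytic cells for its release from the ribosome after interferon, and Rps15a moved with Rpl12 in macrophages. Rpl13a had 215, 360 and 1311 CPM in Mac, against 638, 1197 and 3654 CPM in Cd8 cells, and departed by −0.68 ± 0.07 in Mac (edgeR adjusted p = 2.3e-08). Rps15a departed by −0.49 ± 0.05 in Mac and 0.44 ± 0.05 in Cd8 cells, where it had 7604, 9022 and 6541 CPM.

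Rps9 and Rpl10 stood above the family in Mac, and Rpl28 in cDC, which is no ranking of their levels over the classes. Rps9, of the small subunit, had 4692, 5399 and 3611 CPM in Mac, against 3206, 3114 and 2448 CPM in Treg. In B cells it had more than in Mac, at 5935, 6621 and 4960 CPM. Rps9 departed by 0.64 ± 0.05 in Mac (edgeR adjusted p = 3.0e-11). Rpl10, an X-linked protein of the large subunit, had 2434, 87.0 and 2661 CPM in Mac, against 1701, 47.3 and 2311 CPM in Cd8 cells. It departed by 0.78 ± 0.09 in Mac and −0.51 ± 0.09 in Cd8 cells. Of the 60-base words of its transcript, 92.0% also occur in the pseudogene Rpl10-ps3. Over all cells, Rpl10-ps3 had 21.7, 222 and 10.6 CPM in libraries 1, 2 and 3. The part of this shared sequence in the Rpl10 values was not tested. Rpl28 had 3955, 3776 and 2981 CPM in cDC, against 2530, 2210 and 2183 CPM in Mixed, and departed by 0.54 ± 0.06 in cDC (edgeR adjusted p = 4.4e-08) and −0.45 ± 0.06 in Mixed.

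Other departures were seen in T and B cells. Rps20 departed by 0.57 ± 0.05 in B cells (edgeR adjusted p = 4.0e-09) and −0.35 ± 0.06 in Treg. Rpl22l1, the paralog of Rpl22, departed by 0.35 ± 0.09 in Cd4, 0.34 ± 0.09 in gdT/NK/NKT and 0.28 ± 0.09 in Cd8 cells. In B cells Rpl22l1 departed by −0.36 ± 0.10. The Cd4 call ended without library 2, and the gdT/NK/NKT and Cd8 calls each ended without library 1 and without library 2. Rpl22 did not pass the test in any of the 8 classes, with its lowest edgeR adjusted p at 0.061 in Cd8 cells. Rps19, the protein mutated in Diamond-Blackfan anaemia, departed by −0.36 ± 0.06 in gdT/NK/NKT cells.

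Sparse paralogs showed class patterns in few UMIs. Rpl3l, the muscle-restricted paralog of Rpl3, had 65 of its 96 UMIs in the 175 pDC, at 53.0, 118 and 70.2 CPM in libraries 1, 2 and 3, although library 2 held only 2 pDC. A Rpl3l UMI was found in 26.9% of pDC, against 0.256% of B cells, at a median of 6303, 8453 and 7752 UMIs per pDC and 2870, 4445 and 4198 UMIs per B cell in libraries 1, 2 and 3. pDC were not tested, having under 20 cells in library 2. Rpl39l, the germ-cell paralog of Rpl39, had 3, 4 and 3 UMIs in Mixed, or 10 of its 39, and 10 in Treg.

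Within the Cd4 class, cluster 5 stood far below cluster 0. Family transcripts made up 5.55%, 7.65% and 5.64% of UMIs in cluster 5, against 29.6%, 28.7% and 26.0% in cluster 0. All 83 tested members were lower and 0 higher by edgeR, with 0 higher at an unadjusted p under 0.05 and 0 by DESeq2, where 39.8% of 10545 genes were called, 17.8% higher and 22.1% lower. Rps29 had 1045, 1444 and 984 CPM in cluster 5, against 7314, 7729 and 5604 CPM in cluster 0, a log2 fold change of −3.16 ± 0.13 (edgeR adjusted p = 7.1e-21). Cluster 5 cells had a median of 861 UMIs, against 3619 in all other clusters, and a median of 7.05% mitochondrial UMIs, against 3.20%. The nuclear RNA Malat1 made up 8.36%, 5.99% and 2.93% of UMIs in cluster 5, against 2.92%, 1.75% and 0.458% in cluster 0. The part of these quantities in the low share was not tested.

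Cluster 6, also Cd4, had 1 member higher and 76 lower than cluster 0 (6.91% of all genes called, 3.03% higher and 3.89% lower). Rps27l was the member higher, at 254, 343 and 172 CPM in cluster 6, against 156, 188 and 96.0 CPM in cluster 0 (0.66 ± 0.18, edgeR adjusted p = 0.021), a call that ended without any 1 of the libraries. Rpl12 fell by 1.16 ± 0.12 and Rplp0, the acidic stalk protein, by 1.00 ± 0.14 on the log2 scale. Among Cd8 cells, cluster 4 had 2 members higher and 44 lower than cluster 3 (14.7% called, 7.86% higher and 6.83% lower). Rps27l was again higher, at 318, 272 and 197 CPM, against 152, 157 and 93.0 CPM (0.91 ± 0.18, edgeR adjusted p = 0.00045), together with Rpl7l1 (0.63 ± 0.16). Rps27 was lower by 0.99 on the log2 scale, at 3875, 203 and 3588 CPM in cluster 4, against 7018, 418 and 6435 CPM in cluster 3. The 46 calls of this pair numbered 17 without library 1 and 28 without library 2.

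In gdT/NK/NKT cells, cluster 8 had 14 members higher and 0 lower than cluster 9 (3.6% called, 1.88% higher and 1.73% lower), with 0 lower at an unadjusted p under 0.05 and 0 by DESeq2. Rps28 had 2949, 5731 and 4452 CPM in cluster 8, against 2195, 4895 and 2895 CPM in cluster 9 (0.47 ± 0.12, edgeR adjusted p = 0.014). The count was 0 without library 1, 8 without library 2 and 0 without library 3.

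**Figure D4:**
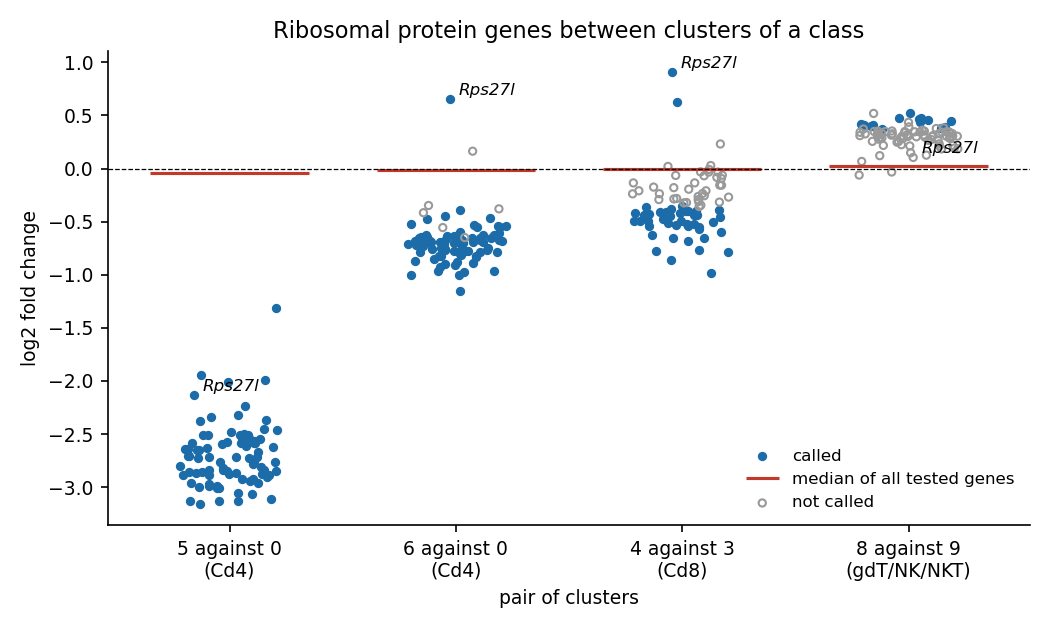
Log2 fold change of 83 members in 4 pairs of clusters, with filled points where the edgeR adjusted p was under 0.05, open points where it was not, and a red bar at the median of all tested genes. The members of cluster 5 lie between −3.16 and −1.31, and Rps27l lies above the others in 6 against 0 and 4 against 3.

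The share also varied with depth inside classes. Cd4 cells with 6000 to 12000 UMIs held 34.4%, 31.0% and 26.1% in libraries 1, 2 and 3, against 24.7%, 22.0% and 18.3% in those with 1500 to 3000. Cd8 and gdT/NK/NKT cells also rose at every step in each library, among ranges with at least 20 cells. Cd8 cells held 29.4%, 31.1% and 27.7% at 6000 to 12000 UMIs, against 24.2%, 22.2% and 19.4% at 1500 to 3000. B cells and Treg of library 3 did not rise at every step. These B cells held 26.3% at 6000 to 12000 UMIs and 27.1% at 3000 to 6000. Treg of library 3 held 16.7% at 3000 to 6000 and 16.8% at 1500 to 3000. Among cells with 6000 to 12000 UMIs, B cells held 33.5%, 34.1% and 26.3%, so that they were highest in library 2 but below Cd4 cells in library 1 and below Cd8 (27.7%) and gdT/NK/NKT cells (28.3%) in library 3. In that range Treg held 26.2%, 25.4% and 20.8%, and Mac 19.9%, 18.5% and 16.5%, so that Mac stayed below Treg and Treg below Cd4 in every library.

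Libraries differed gene by gene. In library 2, 7 members lay under 0.25 of the lower of libraries 1 and 3. Rps12 had 76.7 CPM in library 2, against 4112 and 1981 CPM in libraries 1 and 3, and Rps27 had 288, against 5292 and 4328. Rpl10, Rpl21, Rps2, Rpl27 and Rpl9 were the others. Together the 7 made up 0.457% of family UMIs in library 2, against 6.98% and 9.21% in libraries 1 and 3. The 8 pseudogene names left out by the rule, among them Rps12-ps3 and Rpl10-ps3, summed to 1468 CPM in library 2, against 153 and 26.1 CPM. In the 7 genes a median of 63.4% of 60-base words of the transcript also occurred in other genes (range 45.3% to 93.2%), against 48.3% in the other 79 (range 0 to 90.8%). The part of shared sequence in these low values was not tested.

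Library 3 was the only one read from the 5′ end, so the end and the library cannot be told apart. The list of genes counted may differ too, which the labels do not state: 97 gene names at 10 CPM or more in libraries 1 and 2 were at 0 in library 3, and 181 at 10 CPM or more in library 3 were at 0 in libraries 1 and 2. Its part in the differences between libraries was not tested. With CPM averaged over the 8 tested classes, of 81 members with at least 50 CPM 64 were lower in library 3 than the mean of libraries 1 and 2 and 17 were higher, with a median log2 ratio of −0.31. The values of single genes that follow are CPM over all cells of a library. Rpl29 had 1656 CPM in library 3, against 83.9 and 55.1 CPM in libraries 1 and 2, and Rpl13a 2638, against 488 and 914. Rps25 had 622 CPM in library 3, against 2329 and 2042, and Rps18 118, against 2175 and 47.5. In all 8 tested classes, 38 members were lower and 10 higher in library 3 than in both others.

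**Figure D5:**
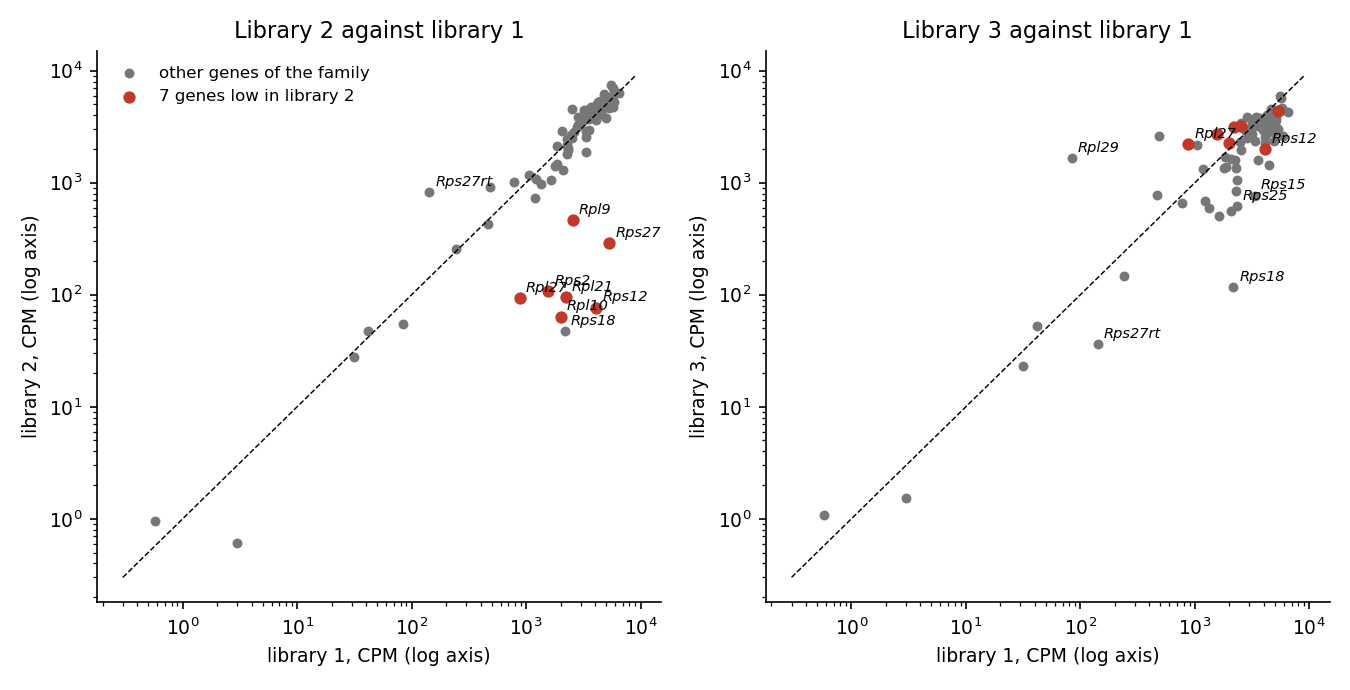
CPM of the family's genes in library 2 (left) and library 3 (right) against library 1, on log axes, with the line of equal values and the 7 genes low in library 2 in red. Rps12 and Rps27 lie far below the line in library 2, and Rpl29 far above it in library 3.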

How the data were processed

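The deposited tables hold UMI counts per gene and cell, and per-cell totals, percent of mitochondrial UMIs, clusters and class names from the authors. Counts came from Cell Ranger 5.0.1 on mm10 and cells were handled in Seurat 4.0, per the submitters' processing notes, and the counts are not normalized. The percent of mitochondrial UMIs is the authors' own deposited value. All 11640 deposited cells were used, with 491 to 62057 UMIs and at most 2997 genes each. The cell table has 8 further columns that were not used. Libraries 1 and 2 shared 6 barcodes and library 3 shared 0.

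Counts were summed per library and class, or cluster, with at least 20 cells in each library, since cells are not replicates. edgeR 4.0.16 (R 4.3.3) fitted class plus library, with TMM scaling and its filter on low counts, by the quasi-likelihood test, with Benjamini-Hochberg adjustment over 10895 genes (10545 for clusters). In the fit of departures, library size was the sum of member UMIs. Of the 86 members, 84 passed the filter in the class fit and 83 in the cluster fit. Library was a block because classes of a library come from the same nerves. Deviations of the same library correlated at 0.286 to 0.915 over 28 pairs of classes. These correlations cannot tell the nerves apart from the sequenced end or the list of genes counted. On simulated data for the Treg comparison under TMM, 17% of genes changed by 0.5 on the log2 scale were recovered. Of genes changed by 1, 85% were recovered, with 0.0881% false calls. On the member total, 18% and 78% were recovered. The simulation held no other class differences, changed only genes outside the family and gave every gene the same spread between libraries. Its rates hold for that setting alone. The simulation cannot give the rate of false calls where the whole family shifts together.

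Doublets were not removed; Scrublet in Scanpy 1.11.5 called 137 cells (1.18%), 129 of them in library 1, and leaving them out was an alternative. Intervals were not used, and errors are SE of the fit. The members and lists were chosen with earlier results of these data known. Named genes are the 10 most abundant members, in each class the 3 called members that departed most in each direction and 2 in the class fit, 2 in each cluster pair, paralogs with their partners, and the members most different between libraries. Start windows are from RefSeq and transcripts for shared 60-base words from GENCODE M21, both on GRCm38.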

Additional observations from a re-analysis of the deposited data

How the results depend on the processing

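Among the members with the largest called differences in each class and cluster pair, none turned its direction under any alternative run. Other differences in the text were not followed this way, such as those of Fau, Eef1g, Myc and Fbl. Rpl22l1 in B cells and Rps27 in cDC were not followed either. Leaving out the library block gave counts of members called in the class comparison of 9 in B, 0 in Cd4, 1 in Cd8, 1 in Mac, 1 in Mixed, 9 in Treg, 1 in cDC and 0 in gdT/NK/NKT. The departures without the block numbered 2 in B, 0 in Cd4, 1 in Cd8, 9 in Mac, 2 in Mixed, 3 in Treg, 6 in cDC and 0 in gdT/NK/NKT, and the cluster pairs gave 0 for 4 against 3, 7 for 6 against 0 and 0 for 8 against 9. The cause was not tested.

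Cd4 counts were 9 with total UMIs, 7 with total UMIs without members, 41 with DESeq2, 11 without a filter, 11 without cells under 1000 UMIs and 6 without cluster 5. Cd8 counts were 21 with DESeq2 size factors, 25 without a filter, 29 with at least 50 cells and 21 without cluster 5. Total UMIs without members gave 75 in Mac, 27 in Mixed and 57 in gdT/NK/NKT, total UMIs gave 26 in Mixed, and at least 50 cells gave 7 in Mixed and no value for cDC. In gdT/NK/NKT, DESeq2 size factors gave 21 and no filter 18. Departures were 9 without a filter and 7 with at least 50 cells in Cd4, 21 with DESeq2 in Cd8, 32 with DESeq2 and 13 without a filter in Mixed, and 29 with DESeq2 and 10 without a filter in gdT/NK/NKT. Cluster 8 against 9 gave 5 with DESeq2 size factors, 4 with total UMIs, 27 with DESeq2, 0 without a filter, 7 without cells under 1000 UMIs and 9 without doublets.

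Leaving out each library in turn gave class counts of 5 to 13 in Cd4, 9 to 17 in Cd8, 22 to 34 in Mac, 2 to 7 in Mixed, 16 to 29 in cDC, 5 to 12 in gdT/NK/NKT. Departures then ranged over 16 to 24 in B, 5 to 6 in Cd4, 6 to 11 in Cd8, 26 to 34 in Mac, 5 to 15 in Mixed, 23 to 28 in Treg, 23 to 37 in cDC, 4 to 10 in gdT/NK/NKT. Cluster pairs ranged over 17 to 35 for 4 against 3, 0 to 8 for 8 against 9.

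The share of UMIs as a mean over cells was 20.3% in Cd4, 26.5% in Cd8 and 24.9% in gdT/NK/NKT, and leaving out the members low in library 2, chosen after seeing the data, gave 26.4% in Cd8. Of 48 named departures, 11 held in every alternative. Depth limits Rpl39l, Rpl3l and Rpl10l, whose fitted folds are no bounds, and the 54 plasma cells and 175 pDC, which were not tested.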
